A study of Homo sapiens with 6 samples.

Results

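FOXP1, FOXP2, FOXP3 and FOXP4 are the FOXP genes, a subfamily of the forkhead box transcription factors. They were taken by gene name from the deposited tables, where 4 of 39554 gene IDs carry these names. The family was chosen with results of the comparison made here in view, so values of the FOXP genes in it are a description, without a p-value. Poly(A) RNA was sequenced from SW620 cells, a long-established line of human colorectal cancer, 72 h after small interfering RNAs (siRNA) were transfected. The 3 siSOWAHA libraries came from cells that received an siRNA against SOWAHA, an ankyrin repeat gene that the series title presents as a cancer suppressor. The 3 siNC libraries came from cells that received a control siRNA. Both groups are the same line, treated with the same transfection reagent, and the genotype label reads SOWAHA knockdown for one and WT for the other.

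Forkhead proteins bind DNA through a winged-helix domain, and the FOXP subfamily also carries a zinc finger and a leucine zipper through which its members pair with themselves and with each other. FOXP1, FOXP2 and FOXP4 act mostly as repressors, recruiting CtBP and the histone deacetylase complex NuRD, and in mouse they are expressed in the developing lung, gut and brain. FOXP2 is best known for its role in speech and language circuits, and FOXP3 as the factor that defines regulatory T cells.

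Depth was 49937395 to 55082095 counts in the siSOWAHA libraries and 53281242 to 59474396 counts in the siNC libraries. SOWAHA itself averaged 7.78 ± 1.08 CPM (counts scaled to effective library size, as counts per 1e6) in the siSOWAHA libraries and 35.2 ± 3.72 CPM in the siNC libraries (SD, n = 3 each; log2 fold change -2.18). The labels give no siRNA sequence and leave unsaid if each library is its own culture, so p-values reflect library-to-library spread alone, and that spread may be technical. Markers of colorectal epithelium summed to 8031 to 8152 CPM in siSOWAHA and 8511 to 8781 CPM in siNC libraries, and of these 7 genes CDH17, CDX2 and KRT8 fell. Most of the sum was KRT8 (4805 ± 46.7 CPM in siSOWAHA, 5231 ± 60.7 CPM in siNC). EPCAM, KRT18, KRT20 and VIL1 were not called, with log2 fold changes of -0.0009, -0.04, 0.07 and -0.06. The 5 fibroblast markers summed to 77.7 to 90.4 CPM in siSOWAHA and 67.6 to 73.9 CPM in siNC libraries, most of it LUM. LUM rose (76.4 ± 5.15 CPM in siSOWAHA, 61.1 ± 2.19 CPM in siNC, edgeR adjusted p = 0.00051). COL1A1 went the other way, with 6.96 ± 1.17 CPM in siSOWAHA and 9.18 ± 0.703 CPM in siNC libraries. Its log2 fold change of -0.40 did not pass the test (edgeR adjusted p = 0.0594). COL1A2 was not called, and COL3A1 and DCN had too few counts for a test. B-cell markers summed to at most 0.368 CPM and endothelial markers to at most 2.88 CPM in any library, and none of them was called. The part of these cell types in the results below was not tested. In bulk RNA, fewer cells expressing a gene and less of its RNA per cell cannot be told apart.

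The start regions of the genes are shown first, because they place the annotated transcript starts within each gene. RefSeq windows on GRCh38.p14, from 250 bases before to 50 bases after a transcript start, were given for 4 of 4 FOXP genes, with 6 windows for FOXP1, 2 for FOXP2 and 1 each for FOXP3 and FOXP4. Both strands were searched for TGTTTAC, a canonical forkhead core which reads GTAAACA on the other strand. The shorter core GTTTAC, contained in every match to the longer one, was searched as well, and it reads GTAAAC on the other strand. FOXP2 is on the plus strand of chromosome 7 (114086327 to 114693765 in the deposited table), and its first window, chr7:114414565-114414864, belongs to a transcript start 328.5 kb inside that span. It is printed with its 1 match to the shorter core in capitals, at position -108 from the start. The second FOXP2 window, chr7:114426252-114426551, has no match and is printed in lower case. FOXP1 is on the minus strand of chromosome 3 (70954708 to 71583978), and its window chr3:71245028-71245327 is shown as the only one of the 10 that holds the longer core, in capitals around position -192. FOXP4 is on the plus strand of chromosome 6 (41546381 to 41602384), and in its window, chr6:41546131-41546430, capitals mark the 139 bases that separate the FOXP4 start from a start of the antisense gene FOXP4-AS1. All are written 5′ to 3′ on the strand of the gene.
FOXP2 window 1: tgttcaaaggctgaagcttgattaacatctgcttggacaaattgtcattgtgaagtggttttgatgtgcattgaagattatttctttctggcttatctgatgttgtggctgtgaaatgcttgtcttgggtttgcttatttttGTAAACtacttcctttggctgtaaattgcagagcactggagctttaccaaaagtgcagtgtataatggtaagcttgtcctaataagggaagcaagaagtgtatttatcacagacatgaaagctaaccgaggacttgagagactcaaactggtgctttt
FOXP2 window 2: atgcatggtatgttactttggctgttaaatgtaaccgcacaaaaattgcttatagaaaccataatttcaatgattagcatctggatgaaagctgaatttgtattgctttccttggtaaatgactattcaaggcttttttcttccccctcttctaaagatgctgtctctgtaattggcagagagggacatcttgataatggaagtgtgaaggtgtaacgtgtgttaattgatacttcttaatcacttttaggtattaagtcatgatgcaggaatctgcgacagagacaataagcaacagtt
FOXP1 window 4: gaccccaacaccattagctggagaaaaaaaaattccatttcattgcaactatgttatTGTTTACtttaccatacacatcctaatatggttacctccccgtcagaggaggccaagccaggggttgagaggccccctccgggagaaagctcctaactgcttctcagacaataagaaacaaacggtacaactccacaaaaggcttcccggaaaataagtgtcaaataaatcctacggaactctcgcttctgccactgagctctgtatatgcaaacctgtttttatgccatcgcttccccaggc
FOXP4 window 1: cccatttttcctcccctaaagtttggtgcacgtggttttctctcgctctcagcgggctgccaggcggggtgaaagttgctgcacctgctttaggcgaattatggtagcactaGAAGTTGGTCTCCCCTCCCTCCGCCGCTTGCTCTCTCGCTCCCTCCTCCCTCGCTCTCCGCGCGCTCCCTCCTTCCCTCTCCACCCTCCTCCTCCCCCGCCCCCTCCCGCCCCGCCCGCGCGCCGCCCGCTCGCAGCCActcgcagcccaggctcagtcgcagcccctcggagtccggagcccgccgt

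The FOXP2 windows were poor in G and C, at 38.7% and 36.3%, with 1 and 3 CpG dinucleotides, whereas the FOXP4 window had 67.7% and 27 CpG. These are unlike positions, since the FOXP2 starts lie 328.5 and 340.2 kb inside the gene and the FOXP4 start opens its span. No window covers the 5′ end of the FOXP2 span. Within FOXP1, the window 0.25 kb inside had 75% G and C, those 279.2 and 451.8 kb inside 39.3% and 42%, and that 519.1 kb inside 77.3%. The FOXP3 window (41.3% G and C) and 4 of the 6 FOXP1 windows held neither core. Of all 35116 windows of this length, 3.42% held the longer core and 7.2% the shorter. A match describes the letters only and shows no binding.

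FOXP4 was the most abundant member in both groups. In the authors' FPKM values (scaled by gene length and depth, which allow levels of different genes to be set side by side), FOXP4 was at 10.6 ± 0.551 in siSOWAHA and 8.72 ± 0.199 in siNC libraries. FOXP1 followed at 1.99 ± 0.0886 FPKM in siSOWAHA and 2.01 ± 0.191 FPKM in siNC libraries. FOXP2 had 1.21 ± 0.0471 FPKM in siSOWAHA and 0.481 ± 0.0129 FPKM in siNC libraries, and FOXP3 had 0.131 ± 0.0184 FPKM in siSOWAHA and 0.225 ± 0.0574 FPKM in siNC libraries (SD, n = 3 each). This order, FOXP4 over FOXP1 over FOXP2 over FOXP3, held in all 6 libraries with no overlap between neighbours. Among the 41 FOX genes with any count, FOXP4 ranked 7, FOXP1 17, FOXP2 23 and FOXP3 25 by mean FPKM, below FOXQ1 (135 FPKM), FOXM1 (43.6 FPKM) and FOXA2 (29.7 FPKM).

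**Figure D1:**
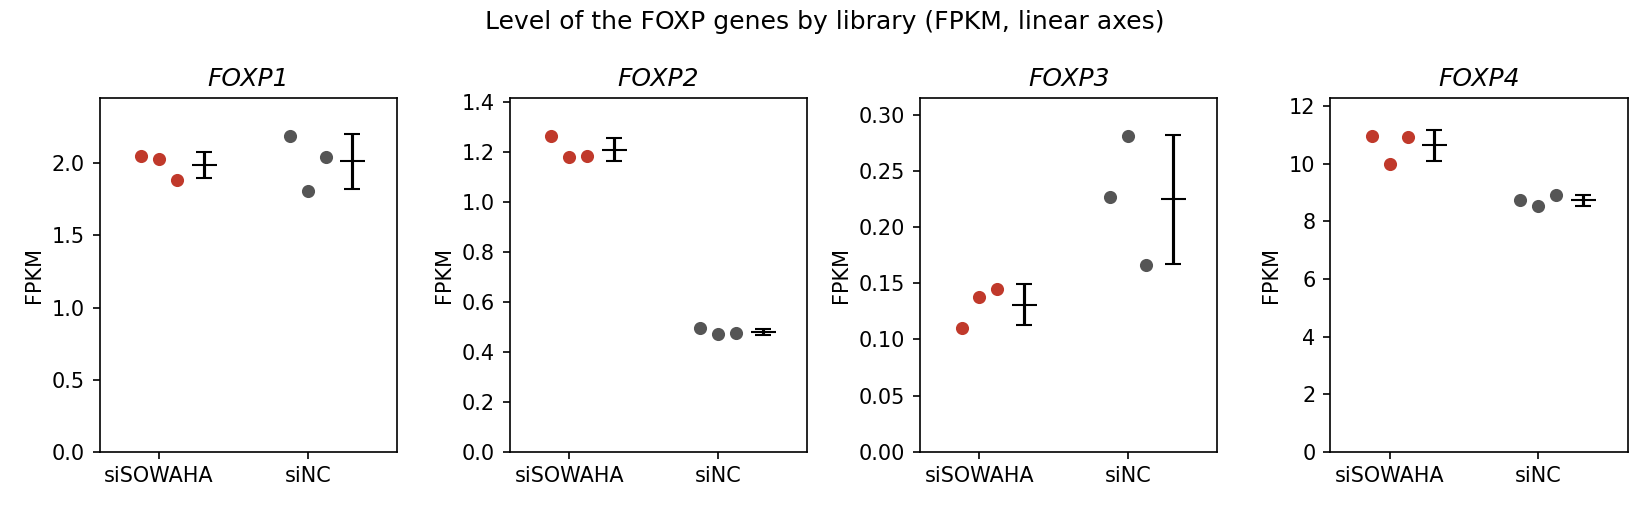
FPKM of each FOXP gene in the 3 siSOWAHA (red) and 3 siNC (grey) libraries, on linear axes that start at 0 and differ between panels; points are libraries and the bar beside them is the mean ± SD. The siSOWAHA points of FOXP2 lie between 1.18 and 1.27 FPKM, all above the siNC points, while those of FOXP1 lie within the siNC range.

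FOXP2, a transcriptional repressor, had 11.1, 10.5 and 10.5 CPM in siSOWAHA replicates 1, 2 and 3, against 4.35, 4.13 and 4.17 CPM in siNC replicates 1, 2 and 3. The groups were far apart, and replicates of a group differed little. The raw counts behind these values were 556, 572 and 561 in siSOWAHA and 233, 246 and 246 in siNC libraries. The mean was 2.54 times as high in the siSOWAHA libraries (log2 fold change 1.35, SE 0.120), and among 17693 genes tested FOXP2 ranked 92 by log2 fold change.

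FOXP4, the dominant member and a paralog expressed in lung and gut epithelium in mouse, had 90.8, 83.8 and 91.2 CPM in the siSOWAHA libraries, against 72.2, 70.3 and 73.2 CPM in the siNC libraries. The lowest siSOWAHA value lay above the highest siNC value. The mean ratio was 1.23 (log2 fold change 0.30, SE 0.0459).

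FOXP1, which in mouse is needed for B-cell, lung and heart development, had 18.5, 18.5 and 17.2 CPM in siSOWAHA libraries, against 19.7, 16.3 and 18.3 CPM in siNC libraries. The siSOWAHA values lay inside the siNC range. The log2 fold change was -0.0034 (SE 0.0872), and it lay between -0.07 and 0.06 over the alternatives. It was negative under every scaling tried and positive with limma-voom and without siSOWAHA replicate 3, siNC replicate 1 or siNC replicate 3.

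FOXP3, the factor of regulatory T cells, was near the lower limit of detection, with 17, 25 and 24 raw counts in siSOWAHA and 38, 52 and 31 in siNC libraries. This corresponds to 0.340, 0.460 and 0.450 CPM in siSOWAHA libraries and 0.710, 0.873 and 0.526 CPM in siNC libraries. The groups did not overlap, but the gap was small beside the spread among siNC libraries. The log2 fold change was -0.75 with an SE of 0.443, and it moved between -0.92 and -0.56 over the alternative settings and left-out libraries.

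All 4 FOXP genes passed the filter on low counts. In the fit across all genes (edgeR's quasi-likelihood test, Benjamini-Hochberg adjusted p under 0.05), 2 of the 4, FOXP2 and FOXP4, were called, both as higher. Of all genes tested 16.9% were called, 9.12% as higher and 7.77% as lower. The CPM values of the groups did not overlap for 3 of the 4, as for 33% of all genes tested. Nothing is read from these counts, since the family was chosen on this contrast.

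FOXP2 held 8.80%, 8.87% and 8.37% of the summed FOXP FPKM in the siSOWAHA libraries, against 4.26%, 4.25% and 4.11% in the siNC libraries. FOXP1 held 14.3% ± 0.939 in siSOWAHA and 17.6% ± 1.23 in siNC libraries, with its own level at 1.99 and 2.01 FPKM. The FOXP4 share was 76.1% ± 1.19 in siSOWAHA and 76.2% ± 1.07 in siNC libraries (SD, n = 3 each). FOXP4 makes up most of the sum, so the sum mainly follows its level by arithmetic. The higher FOXP2 level (1.21 FPKM in siSOWAHA, 0.481 FPKM in siNC) adds to the sum as well. That sum was 14.0 ± 0.546 FPKM in siSOWAHA and 11.4 ± 0.317 FPKM in siNC libraries. For each 1000 counts of FOXP1 there were 601, 568 and 612 counts of FOXP2 in siSOWAHA libraries, against 221, 253 and 228 in siNC libraries.

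**Figure D2:**
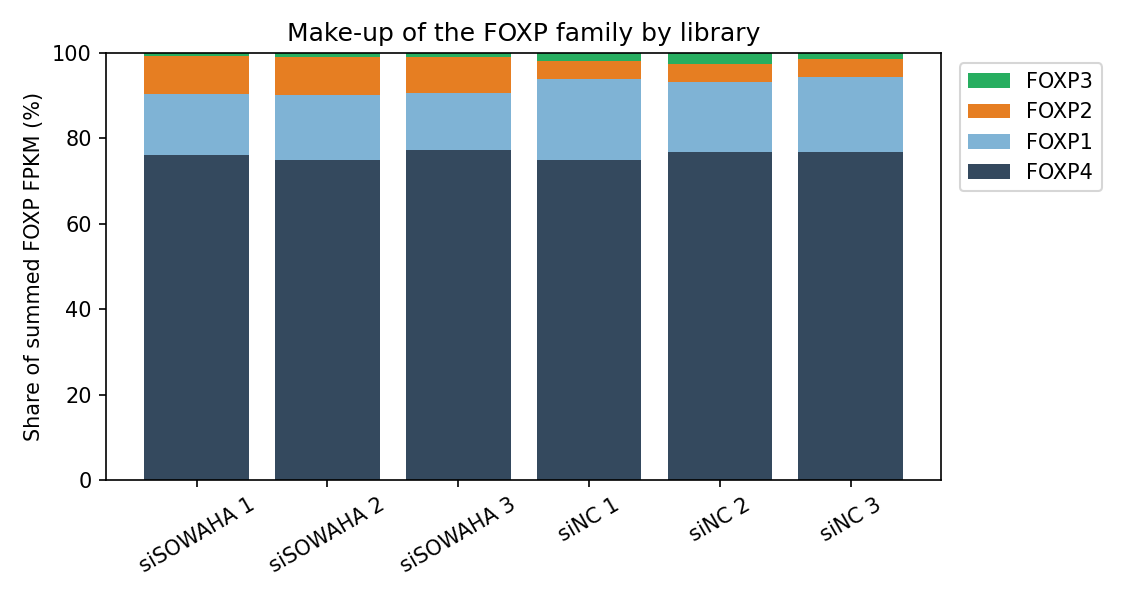
Share of each FOXP gene in the summed FOXP FPKM (vertical axis, %), 1 bar per library, with the siSOWAHA libraries on the left. The orange FOXP2 segment takes 8.37% to 8.87% in siSOWAHA libraries and 4.11% to 4.26% in siNC libraries, and FOXP4 is the tallest segment in all 6.

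FOXP3 and FOXP4 share bases with other genes in the deposited annotation, and although the libraries are strand-specific, the strand setting of the counting is not given. CCDC22, which takes part in endosomal sorting and NF-kB regulation, runs on the plus strand and ends 85 bases inside the span of FOXP3 (X chromosome, 49250436 to 49264932, minus strand). CCDC22 had 29.5, 29.3 and 26.1 CPM in siSOWAHA libraries, against 34.0, 32.0 and 30.4 CPM in siNC libraries. It was lower in each siSOWAHA library than in any siNC library, with a log2 fold change of -0.18 (SE 0.0704, adjusted p = 0.0923), which did not pass the test. For each 1000 counts of CCDC22 there were 11.5, 15.7 and 17.2 counts of FOXP3 in siSOWAHA libraries and 20.9, 27.3 and 17.3 in siNC libraries. What part of the FOXP3 counts came from CCDC22 transcripts was not tested.

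FOXP4-AS1, a long noncoding RNA on the opposite strand, overlaps FOXP4 by 2241 bases. It had 0.540, 0.884 and 1.20 CPM in siSOWAHA libraries, against 1.42, 0.991 and 1.25 CPM in siNC libraries. The groups overlapped, and the log2 fold change of -0.48 (SE 0.339, adjusted p = 0.4) did not pass the test. Annotated starts of FOXP4-AS1 lie 138 bases upstream of the FOXP4 start, in the window printed above, and 1164 and 2240 bases downstream of it. For each 1000 counts of FOXP4 there were 5.95, 10.5 and 13.1 counts of FOXP4-AS1 in siSOWAHA and 19.7, 14.1 and 17.1 in siNC libraries. FOXP1-AS1 and the intronic microRNA genes MIR1284 (FOXP1) and MIR3666 (FOXP2) had 0 counts in all 6 libraries, and MIR4641 (FOXP4) had 2 to 6, in libraries of poly(A) RNA that are not made to hold microRNAs.

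**Figure D3:**
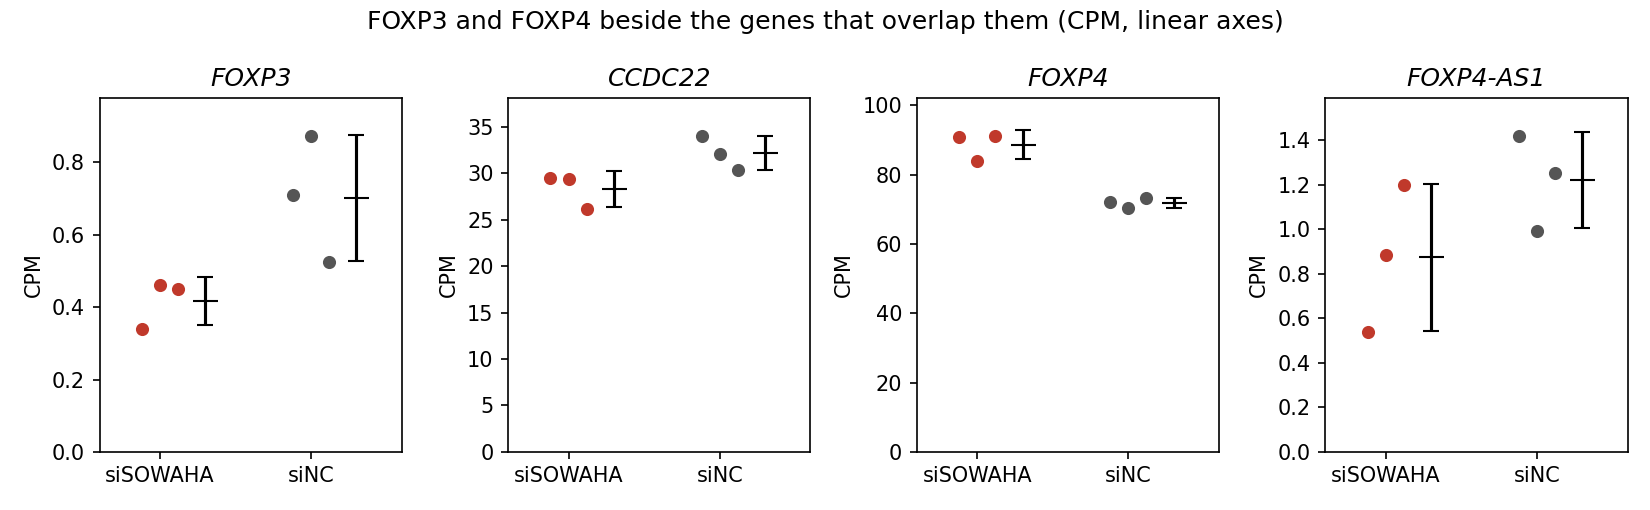
CPM of FOXP3 and CCDC22 and of FOXP4 and FOXP4-AS1, genes that overlap each other, by library on linear axes from 0; points are libraries (red siSOWAHA, grey siNC) and bars the mean ± SD. FOXP3 and CCDC22 both have their siSOWAHA points below the siNC points, while FOXP4 has them above and FOXP4-AS1 has points that overlap.

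Defining T cell markers were checked beside FOXP3. PTPRC, CD3D and CD3E, which mark leukocytes and T cells, were at 0 counts in all 6 libraries. The 9 markers of T cells and regulatory T cells summed to 67.3 to 70.5 CPM in siSOWAHA and 79.1 to 81.3 CPM in siNC libraries. TNFRSF18 (44.3 ± 1.09 CPM in siSOWAHA, 49.7 ± 0.265 in siNC) and CD4 (23.6 ± 1.88 CPM in siSOWAHA, 29.4 ± 0.874 in siNC; SD, n = 3 each) made up nearly all of that sum, and both fell (adjusted p = 0.0253 for TNFRSF18 and 0.00754 for CD4). CD8A (0.910 ± 0.0967 CPM in siSOWAHA, 0.854 ± 0.153 in siNC, log2 fold change 0.09) was tested and not called. Nor was IKZF2 called (log2 fold change 0.01, SE 0.931), on few counts. IL2RA and CTLA4, which FOXP3 regulates in regulatory T cells, had at most 0.299 and 0.262 CPM in any library.

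The nearest 3 tested genes on each side of each FOXP gene gave the chromosomal context, and 5 of these 24 genes were called (20.8%, against 16.9% of all genes tested), 1 as higher and 4 as lower, with a median log2 fold change of -0.17 beside -0.01 over all genes. Some of the 24 rest on few counts, among them the genes with the lowest and highest log2 fold changes. These were EIF4E3 (10 to 58 counts, -0.80, SE 0.523) and LOC112267957 (0 to 29 counts, 1.71, SE 0.923), neither of them called. None of the 6 neighbours of FOXP2 was called higher. On its far side TES, a focal adhesion protein gene 1517 kb away, had 98.1 ± 2.66 CPM in siSOWAHA and 112 ± 2.24 CPM in siNC libraries and fell (log2 fold change -0.19, adjusted p = 0.00397). The caveolin genes CAV2 and CAV1, which build membrane caveolae and lie 1806 and 1831 kb away, fell by 0.31 (adjusted p = 0.0302) and 0.24 (adjusted p = 0.0124) on the log2 scale. On the near side, 968 to 1296 kb away, TMEM168 (-0.12), BMT2 (-0.28) and SMIM30 (0.12) did not pass the test. The CAV2 call was lost with a replicate block (adjusted p = 0.0515) and without siSOWAHA replicate 1 (0.109) or 3 (0.0601) or siNC replicate 1 (0.109), 2 (0.0784) or 3 (0.0609). CAV1 missed the threshold when siSOWAHA replicate 3 (adjusted p = 0.0564), siNC replicate 1 (0.063) or siNC replicate 2 (0.055) was left out.

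Beside FOXP4, MDFI, an inhibitor of MyoD-family factors that starts 34.6 kb past the FOXP4 end, had 18.0 ± 0.385 CPM in siSOWAHA and 27.6 ± 3.91 CPM in siNC libraries (SD, n = 3 each). It fell by 0.62 on the log2 scale (SE 0.0926, adjusted p = 0.000267) while FOXP4 was higher. The other tested neighbours of FOXP4 did not pass the test. None of the 6 neighbours of FOXP1 was called by edgeR, and their adjusted p ran from 0.0854 (ARL6IP5) upward. Beside FOXP3, only the noncoding gene USP27X-DT was called, as higher (log2 fold change 1.34, SE 0.44, adjusted p = 0.0482). It averaged 1.21 CPM in siSOWAHA and 0.477 CPM in siNC libraries, its values overlapped, and it was called in 5 of 16 settings, of which 2 gave no adjusted p. With siSOWAHA replicate 2 or 3 left out its adjusted p was 0.144 or 0.22, and with siNC replicate 1 or 3 left out it was 0.111 or 0.161.

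**Figure D4:**
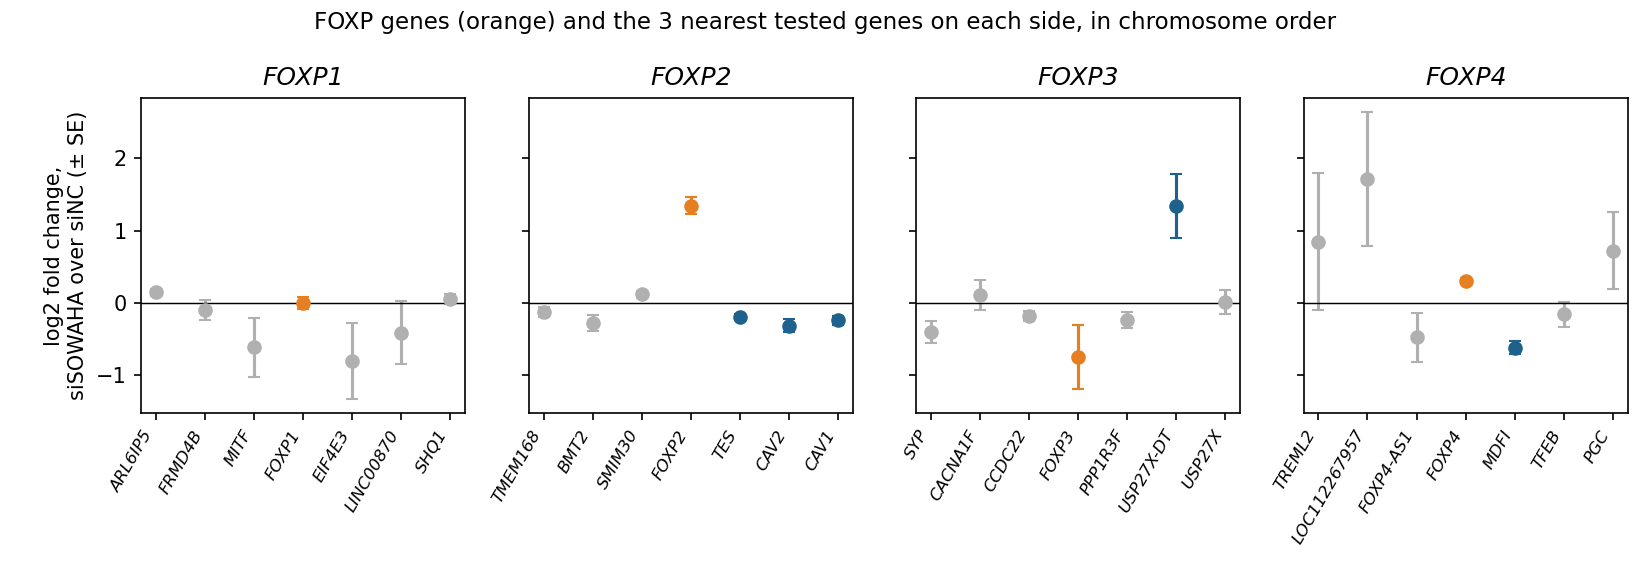
Log2 fold change (siSOWAHA over siNC, vertical axis, ± SE) of each FOXP gene (orange) and its 3 nearest tested genes on each side in chromosome order; blue genes passed an adjusted p of 0.05 and grey ones did not. FOXP2 is at 1.35 while TES, CAV2 and CAV1 beside it are below 0, and MDFI is below 0 beside FOXP4 at 0.30.

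Of the 37 other FOX genes with any count, 25 could be tested, and the 12 others had at most 19 counts in a library. Of the 25, 4 rose and 3 fell (28% called, against 16.9% of all genes), with a median log2 fold change of 0.04 beside -0.01 over all genes tested. Their log2 fold changes ran from -0.51 to 0.31, so that FOXP2 at 1.35 and FOXP3 at -0.75 lay outside the range of the other tested FOX genes. FOXP2 was chosen for its change in this contrast, and FOXP3 (SE 0.443) lay beyond that range by less than its SE. FOXC1, a mesodermal regulator, fell most among the other FOX genes, to 6.70 ± 0.501 CPM in siSOWAHA against 9.52 ± 0.552 CPM in siNC libraries (log2 fold change -0.51, SE 0.119, adjusted p = 0.00797). FOXQ1, the most abundant FOX gene here and a Wnt-responsive factor in colorectal cancer, had 358 ± 5.99 CPM in siSOWAHA and 416 ± 17.1 CPM in siNC libraries (SD, n = 3 each) and fell (-0.21, adjusted p = 0.000297). FOXA3, a pioneer factor of endoderm, rose (0.26, SE 0.0643, adjusted p = 0.0113), as did FOXK1, a regulator of glycolysis and autophagy genes (0.19, SE 0.0432, adjusted p = 0.00691). These 4 genes were called in all 16 settings.

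The other 3 calls among FOX genes were lost under some settings. FOXF2, a factor of gut mesenchyme, fell (-0.33, adjusted p = 0.0291), but not without siSOWAHA replicate 1 (0.0714), 2 (0.0954) or 3 (0.0584) or siNC replicate 2 (0.16) or 3 (0.0894). FOXN2 rose (0.20, adjusted p = 0.0205), but not without siSOWAHA replicate 2 (0.0635) or 3 (0.103) or siNC replicate 1 (0.0528) or 3 (0.0958). FOXO4, a factor kept out of the nucleus by AKT, rose (0.30, adjusted p = 0.0461), but not without siSOWAHA replicate 1 (0.2) or 2 (0.127), without any one siNC replicate (0.105 to 0.129), or with a replicate block (0.0661). It also missed the threshold with library totals alone (0.0615), upper-quartile factors (0.0592), limma-voom (0.0604) and a fit that was not robust (0.0602), and was called in 6 of 16 settings.

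**Figure D5:**
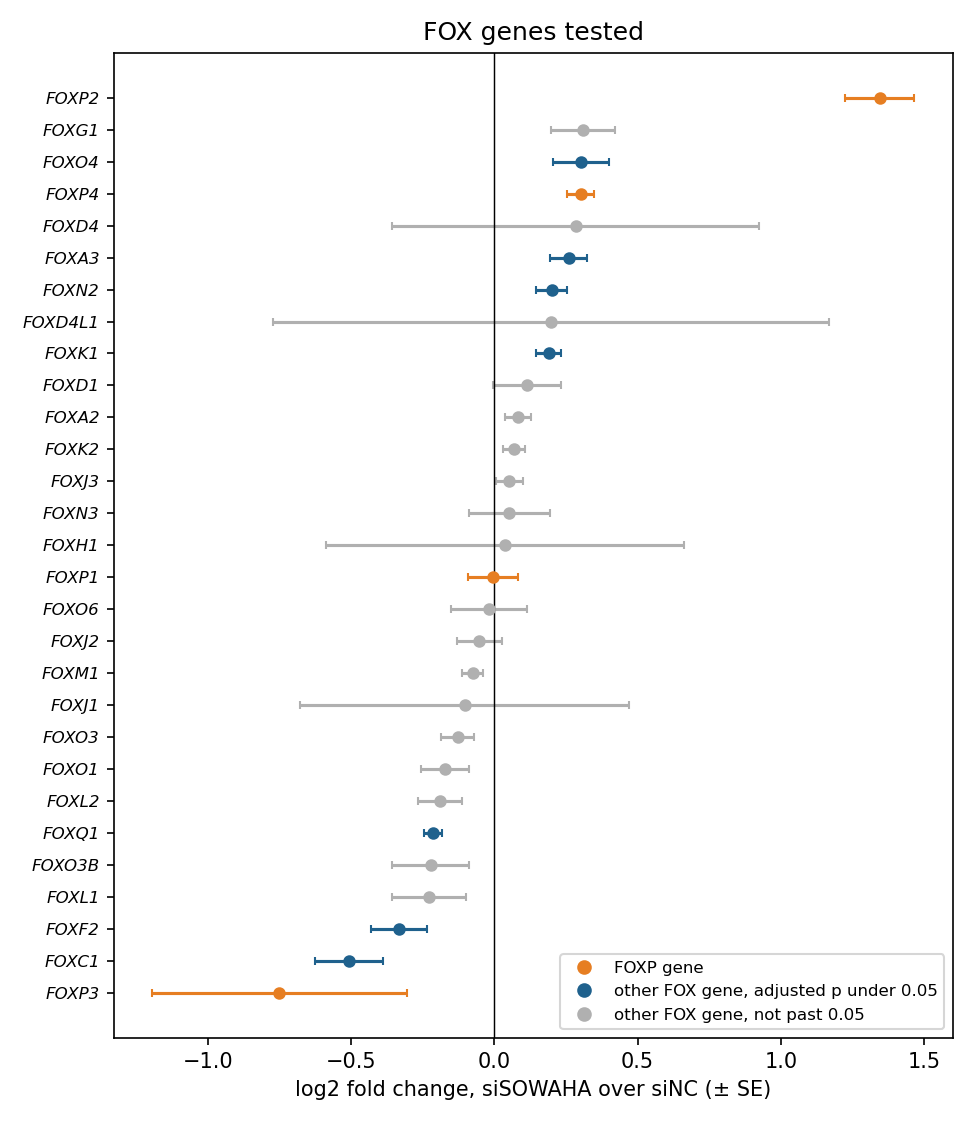
Log2 fold change (siSOWAHA over siNC, horizontal axis, ± SE) of the 29 FOX genes tested, ordered by value; orange marks the FOXP genes, blue the other FOX genes past an adjusted p of 0.05 and grey the rest. FOXP2 at 1.35 and FOXP3 at -0.75 stand at the ends, and the error bar of FOXP3 is among the widest.

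Proteins that bind FOXP factors or carry out their repression made up a list of 29 genes, of which 28 were tested. Of these, 3 rose and 3 fell (21.4% called, against 16.9% of all genes tested), with a median log2 fold change of -0.02 beside -0.01 over all genes. Within NuRD, the deacetylase HDAC1 had 342 ± 6.21 CPM in siSOWAHA and 305 ± 5.05 CPM in siNC libraries (SD, n = 3 each) and rose (0.16, adjusted p = 0.0011). The helicase CHD4 rose by 0.10 (adjusted p = 0.0207). The other 11 NuRD genes and both CtBP genes did not pass the test. SATB1, a chromatin organiser, rose (0.23, adjusted p = 0.00718), and RUNX1, a FOXP3 partner in T cells, fell to 174 ± 3.50 CPM in siSOWAHA against 206 ± 5.45 CPM in siNC libraries (-0.24, adjusted p = 0.000184). The deacetylase HDAC7 also fell (-0.20, adjusted p = 0.0223).

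The calls of HDAC1, SATB1 and RUNX1 held in all 16 settings. CHD4 missed the threshold without siSOWAHA replicate 1 (adjusted p = 0.0523) or 3 (0.0993) or siNC replicate 2 (0.131), with upper-quartile factors (0.0595) and with library totals alone (0.0541). The HDAC7 call was lost without siSOWAHA replicate 2 (0.0761) or 3 (0.134) or siNC replicate 1 (0.0514) or 3 (0.122), and with a replicate block (0.0512).

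Genes reported as bound or regulated by FOXP2 in neural or other cells made up a list of 7, of which 5 were tested. Of these, 2 fell and the other 3, MET, DISC1 and SRPX2, did not pass the test (40% called, against 16.9% of all genes tested, of which 7.77% as lower). The median log2 fold change of the 5 was 0.03, beside -0.01 over all genes. Like the other lists, this short one was chosen with earlier results of these data known, and nothing is read from its share. PLAUR, the urokinase receptor gene, had 5.98, 5.26 and 5.55 CPM in siSOWAHA libraries, against 8.31, 7.29 and 7.29 CPM in siNC libraries (log2 fold change -0.45, SE 0.131, adjusted p = 0.0291). VLDLR, a lipoprotein and reelin receptor gene, had 12.6, 13.4 and 12.7 CPM in siSOWAHA libraries, against 16.1, 15.1 and 17.9 CPM in siNC libraries (-0.34, SE 0.0908, adjusted p = 0.0181). For both the groups did not overlap, as for 33% of all genes tested. PLAUR missed the threshold without siSOWAHA replicate 2 (adjusted p = 0.0952) or 3 (0.081) or siNC replicate 1 (0.123), 2 (0.0537) or 3 (0.0577). The VLDLR call was lost without siSOWAHA replicate 1 (0.054) or 3 (0.064) or siNC replicate 1 (0.0506) or 3 (0.11). CNTNAP2 and MEF2C had too few counts for a test.

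Genes with the pattern most like each FOXP gene were sought among those of at least 5 CPM on average, by Pearson's r of log2 CPM over the 6 libraries, which fall into the 2 groups. For FOXP2 these were ZNF664 (r = 0.9998), RTN3 (r = 0.999) and NOLC1 (r = 0.999), whose log2 fold changes were 0.38, 0.23 and 0.76. For FOXP4 they were ADIPOR2 (r = 0.997), NCLN (r = 0.995) and NES (r = 0.994), all higher in siSOWAHA by 0.17 to 0.20 on the log2 scale. For FOXP3 they were ZC3H14, ZCCHC8 and NIPSNAP2 (r = 0.990 to 0.995), with log2 fold changes of -0.19 to -0.08. For FOXP1 they were CEP164, LOC101927864 and DEPDC5 (r = 0.977 to 0.988), with log2 fold changes of -0.05 to -0.01. These r values describe 6 libraries that share their 2 conditions.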

How the data were processed

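Counts per gene were deposited by the authors as whole numbers for 39554 Entrez gene IDs. The authors also deposited FPKM for 24901 of these genes, in a table whose counts were equal to those of the first. Per the submitters' processing notes, reads were trimmed with cutadapt 1.9 and set against GRCh38. Neither the aligner and counter nor the strand setting or the lengths behind FPKM are stated in those notes. Groups came from sample titles.

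The test was the two-sided quasi-likelihood F test of edgeR 4.0.16 (R 4.3.3), in its robust form, on genes passing filterByExpr and with TMM scaling; p-values were adjusted by Benjamini-Hochberg over 17693 genes. Each SE was derived from the F statistic, as the absolute log2 fold change divided by its square root. CPM used TMM factors. FPKM values were compared on log2(FPKM + 1) with limma 3.58.1. The edgeR fit, and no other step, was also run on simulated counts that shared a common dispersion. DESeq2 1.42.0, limma-voom, other scaling and filters, a replicate block and each library left out were alternatives. Gene names that the table marks with a suffix for an alternate scaffold were matched to RefSeq symbols by gene ID. Start windows were matched for 74.8% of tested genes.

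Replicates differed by more than sampling noise (chi-square per degree of freedom 7.78 to 14.8). An exact permutation test of 3 against 3 libraries cannot go below p = 0.1 and was not used. Named were the FOXP genes, transcripts at their loci, called members of each list (up to 6, or 8 for FOX genes), called neighbours and the 3 genes most alike in pattern; T cell and epithelial markers, uncalled neighbours and uncalled target genes were named beside them. The values of 1 called partner gene are not reported here. The members and lists were chosen with earlier results of these data known.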

Additional observations from a re-analysis of the deposited data

How the results depend on the processing

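The log2 fold changes of FOXP2 (1.32 to 1.37 over 15 alternatives), FOXP4 (0.28 to 0.34 over 15) and FOXP3 (-0.92 to -0.56 over 14) kept their sign, and that of FOXP1 (-0.07 to 0.06 over 15) did not. FOXP3 could not be fitted with a filter of 1 CPM in 3 libraries. On the log2(FPKM + 1) scale the difference of FOXP2 was 0.58, and with a pseudocount of 0.1 it was 1.17, since a pseudocount of 1 exceeds the siNC level of FOXP2. That fit kept genes with at least 1 FPKM in at least 3 libraries, which FOXP2 reached through its siSOWAHA libraries alone. FOXP2 was therefore not fitted on this scale with a siSOWAHA library left out. Without that filter its difference was also 0.58. Leaving out 1 library gave 1978 to 2678 calls over all genes, 4 to 5 among other FOX genes, 3 to 6 among partner genes, 2 to 5 among neighbours and 0 to 1 among reported FOXP2 targets, where 2 to 4 of 5 had an unadjusted p under 0.05 by edgeR; the full set gave 2988, 7, 6, 5 and 2. Libraries of the same replicate number showed no positive shared deviation (correlation of deviations -0.373, -0.0896 and -0.0485). With so few libraries this cannot tell if they were prepared in pairs. The replicate block gave 3 called neighbours and log2 fold changes of 1.35 for FOXP2 and 0.30 for FOXP4. DESeq2 called 9 partner genes (6 higher, 3 lower) and 3 reported targets (1 higher, 2 lower). FOXP3 rests on 17 to 52 counts per library.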

Other observations

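Forkhead cores in the start windows of tested genes were set beside the calls, as a description. The core TGTTTAC was in at least 1 window of 4.04% of the 1337 genes called higher, 3.46% of the 1069 called lower and 3.62% of the 10827 not called. The shorter GTTTAC was in 8.83% of the genes called higher, 7.95% of those called lower and 7.8% of those not called.

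Neuronal genes were also looked at, since FOXP2 is best known from neurons. TUBB3, a neuronal tubulin, had 41.6, 33.4 and 39.5 CPM in siSOWAHA libraries and 53.8, 56.9 and 55.3 CPM in siNC libraries, and fell (log2 fold change -0.54, edgeR adjusted p = 6.05e-05). The synaptic gene SYP, a neighbour of FOXP3, was lower by 0.40 on the log2 scale and did not pass (adjusted p = 0.0808). RBFOX3 and SNAP25 had at most 0.180 and 0.442 CPM in any library.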
